A study of Rattus norvegicus with 20 samples.

Results

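The miR-181 family was followed in rats with a chronic lesion of the sciatic nerve, in the soleus muscle that this nerve supplies and in the dorsal root ganglia (DRGs) that hold the cell bodies of its sensory fibres. The family was taken as the 4 mature miRNAs rno-miR-181a, rno-miR-181b, rno-miR-181c and rno-miR-181d, by their names on the array (rno stands for rat and is left out from here on). They are 4 of the 348 rat miRNAs that carried the same name in every file, out of 350 on the array. All 4 had a probe set on each of the 20 arrays, 10 of soleus and 10 of DRGs.

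miRNAs are short RNAs that pair with messenger RNAs, mostly through bases 2 to 8, and lower their translation or stability. Members of a family share these bases, called the seed, and so can recognise many of the same messengers, while they are made from hairpin precursors at separate places in the genome. miR-181 miRNAs are known for their part in lymphocyte development, for their rise during the differentiation of muscle cells, and for their expression in the nervous system.

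The sequences are shown because the 4 members differ by so few bases that this bears on how the array signals are read. In RefSeq, 4 of 692 rat mature sequences carry the seed ACAUUCA, and these are the 4 members, each of which was matched by name. The mature sequences follow, 5′ to 3′, with the seed in capitals.
miR-181a: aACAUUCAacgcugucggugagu
miR-181b: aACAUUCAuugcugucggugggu
miR-181c: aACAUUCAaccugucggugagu
miR-181d: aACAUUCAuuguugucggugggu
Counted from the 5′ end, miR-181b differs from miR-181a by A9U, C10U and A21G. miR-181d differs from miR-181b by C12U alone. miR-181c has 22 bases where the others have 23, and 1 edit turns it into miR-181a. By sequence the members therefore form the pairs miR-181a with miR-181c and miR-181b with miR-181d, 1 edit within each pair and 3 to 5 edits between them. How far each probe set tells its member from the other of the pair was not tested, and signals of different members are not compared as levels.

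By genome position the pairs are others. In the RefSeq annotation of the rat build GRCr8, Mir181a-1 (chr13:52037067-52037166) and Mir181b1 (chr13:52037228-52037337) lie 61 bases apart on the plus strand. Mir181a2 (chr3:43025563-43025679) and Mir181b2 (chr3:43026666-43026753) lie 986 bases apart on the plus strand. Mir181c (chr19:40888291-40888396) and Mir181d (chr19:40888474-40888556) lie 77 bases apart, also on the plus strand. miR-181a and miR-181b each come from 2 loci, which a signal of the mature miRNA does not separate, whereas miR-181c and miR-181d each come from 1. In the DRGs these 2 members, encoded side by side, were the 2 called lower against denervation, beside 32.9% (entrapment) and 27.9% (decompression) of all tested miRNAs. Their hairpins are therefore given, with the mature miRNA in capitals.
Mir181c: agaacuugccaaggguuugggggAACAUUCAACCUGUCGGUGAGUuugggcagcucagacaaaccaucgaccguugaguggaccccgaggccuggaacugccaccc
Mir181d: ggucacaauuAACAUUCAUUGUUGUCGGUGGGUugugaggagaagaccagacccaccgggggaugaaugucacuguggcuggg
The mature miRNA occupies bases 24 to 45 of the 106-base hairpin of miR-181c and bases 11 to 33 of the 83-base hairpin of miR-181d, the arm nearer to the 5′ end in both.

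All rats were adult male Sprague-Dawley. In the denervation group the sciatic nerve had been cut and a piece removed 6 months before. In the entrapment group a silastic tube had lain around the nerve for 6 months, and in the decompression group such a tube was taken off after 6 months and the rats were followed for 3 months more. Each tissue had 3 arrays for each of these groups and 1 array for sham-operated controls, while the study's methods name 3 rats in each group, sham included, for the arrays. The sources used here do not say whether the sham array holds pooled RNA, nor do they tie arrays to rats, and soleus and DRG arrays may come from the same rats. The DRGs were ipsilateral, and the methods name L4 to L6 for the spinal segments without a separate level for the DRGs. Whole tissues were extracted, so that fewer cells of a type and less miRNA per cell cannot be told apart. The arrays were single-colour Agilent rat miRNA arrays, and the value used is the total gene signal, a background-subtracted intensity that the authors did not normalize between arrays. Here each array was scaled to the 75th percentile of its signals, any signal below a detection floor of 2.57 in soleus or 2.31 in the DRGs was raised to that floor, and comparisons were made on the log2 scale.

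Several arrays stood apart. The percentile used for scaling ranged 6.20-fold among the soleus arrays, from 409 on the sham array to 2539, and 1.62-fold among the DRG arrays. The files of the soleus sham array and of denervation 1 and 2 share a layout of their own, and the median signal of the 45 control features was 107 to 210 on these 3 arrays and 3.03 to 17.0 on the other 7. In the DRGs it was 1.26 to 3.77 on the 4 sham and denervation arrays and 8.12 to 13.2 on the 6 entrapment and decompression arrays. A table of processed values, also deposited, gives the DRG entrapment and decompression arrays each other's names, and the names of the scanner files are used unless stated otherwise. The tissue labels were held against marker miRNAs. Of 8 miRNAs listed for neurons, miR-124, miR-9, miR-9*, miR-129, miR-138 and miR-153 were detected on 0 soleus arrays, miR-218 on 7 and miR-128 on 10. Of 3 listed for sensory neurons, miR-183 was detected on 0 soleus arrays, miR-96 on 1 and miR-182 on 2. In the DRGs these miRNAs were detected on all 10 arrays, except miR-129 and miR-153, each on 2. The summed signal of 5 muscle miRNAs (miR-1, miR-133a, miR-133b, miR-206 and miR-499) was 48285 to 301141 in soleus and 263 to 471 in the DRGs. Among these, miR-499 was detected on 9 soleus arrays, all but the sham array, and on all 10 DRG arrays. Its signal was 2.70 to 278 in soleus and 15.6 to 28.9 in the DRGs. The other 4 were detected on all 10 soleus arrays.

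miR-181a and miR-181b were detected on all 20 arrays. miR-181c was detected on 7 of 10 soleus arrays and all 10 DRG arrays, and miR-181d on 2 of 10 soleus arrays and all 10 DRG arrays. miRNAs detected on at least 3 arrays of a tissue were tested, so 3 members were tested in soleus and 4 in the DRGs. The passenger strand miR-181a*, which is no member and has another seed, was detected on 0 soleus arrays and 6 DRG arrays. The plot of scaled signals by array shows all values.

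**Figure D1:**
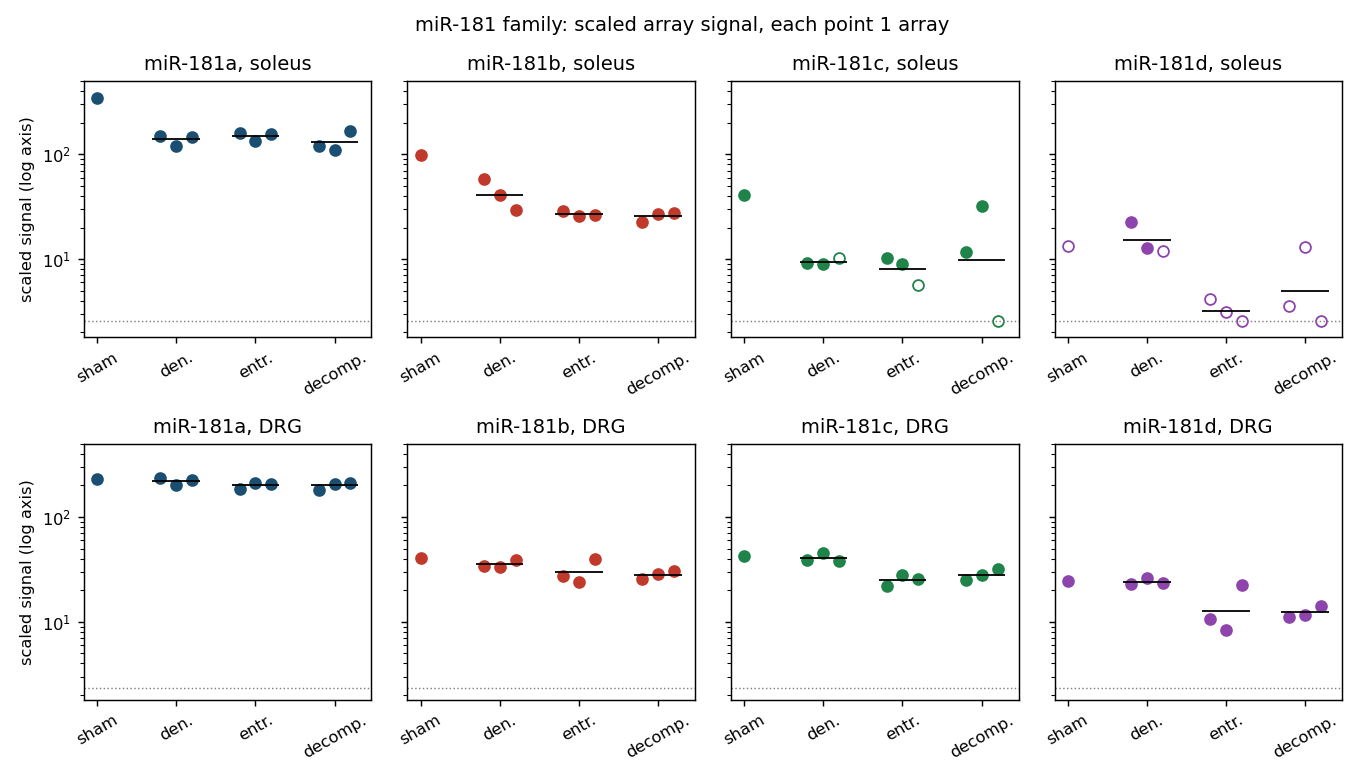
Scaled signal (log axis) of miR-181a, miR-181b, miR-181c and miR-181d on each soleus array (top) and DRG array (bottom) by group; each point is 1 array, open points were not detected, horizontal bars are geometric means of 3 arrays, and the dotted line is the detection floor, at which lower signals are drawn. In soleus the sham array is the highest of the 10 for miR-181a (346), miR-181b (98.7) and miR-181c (41.0). In the DRGs, miR-181c lies between 38.3 and 45.5 on the sham and denervation arrays and between 21.8 and 32.0 on the others.

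In soleus, miR-181a, miR-181b and miR-181c were highest on the sham array once the arrays were scaled. This compares 9 injury arrays with 1 sham array, and the size and the sign of the difference depended on how arrays of unlike brightness were put on a common scale. The members are therefore also given relative to the median of all tested miRNAs, below which the 3 lay in each comparison with sham. These 3 comparisons share the sham array.

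The soleus sham array gave miR-181a a scaled signal of 346. It was 151, 121 and 148 after denervation, 160, 134 and 157 after entrapment, and 119, 110 and 167 after decompression. All 9 injury arrays lay below sham, and the 3 injury groups overlapped. With a standard error of 0.36, limma put the log2 difference from sham at -1.31 for denervation (adjusted p = 0.0243, Benjamini-Hochberg), -1.21 for entrapment (adjusted p = 0.0331) and -1.42 for decompression (adjusted p = 0.0170). Without scaling these differences were 0.17, 0.42 and -0.06, so that the first and second changed sign.

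miR-181b is encoded beside miR-181a at both loci, and its scaled signal was 98.7 in sham soleus. It was 57.6, 40.9 and 29.5 after denervation, 29.1, 25.7 and 26.6 after entrapment, and 22.7, 27.2 and 27.8 after decompression. Every injury array was again below sham, and the denervation arrays were all higher than the entrapment and decompression arrays. With a standard error of 0.40, the log2 difference from sham was -1.26 for denervation (limma adjusted p = 0.0467), -1.86 for entrapment (adjusted p = 0.0101) and -1.94 for decompression (adjusted p = 0.00685). Without scaling the values were 0.22, -0.23 and -0.58, the first with a changed sign.

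For miR-181c, encoded next to miR-181d, the soleus sham array gave 41.0. It was 9.19, 8.92 and 10.2 after denervation, 10.2, 8.88 and 5.69 after entrapment, and 11.7, 32.3 and 2.31 after decompression, the last value of each group without detection. Decompression 2 came near the sham array and the other 8 injury arrays were far below it. The log2 differences from sham, -2.12, -2.35 and -2.05, had a standard error of 1.06 and did not pass limma's threshold (adjusted p = 0.176, 0.125 and 0.189).

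Thus 2 of the 3 tested members, miR-181a and miR-181b, fell against sham in each injury group by limma under the scaling used. limma called 15.0% of the 173 tested soleus miRNAs lower after denervation, 19.7% after entrapment and 22.0% after decompression. By the rule of a 2-fold change on each of the 3 arrays, miR-181a and miR-181c were lower after denervation, where 18.5% of all tested miRNAs were called lower. All 3 tested members were lower after entrapment, beside 27.2% of all. miR-181a and miR-181b were lower after decompression, also beside 27.2% of all. The members' median log2 difference from sham was -1.31, -1.86 and -1.94, against medians of -0.07, -0.37 and -0.29 over all tested miRNAs.

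Relative to that median of all tested miRNAs, miR-181a lay at -1.24 after denervation, -0.84 after entrapment and -1.13 after decompression. For miR-181b the values were -1.19, -1.49 and -1.65, and for miR-181c -2.05, -1.98 and -1.76. Of 6 other treatments of the scale, no scaling, scaling to the median, the percentile over another set of miRNAs and the deposited processed values divide each array by 1 constant, so that by construction they can change these relative values only through the floor. Quantile scaling and a loess fit through miRNAs of like rank can change them. For miR-181a the relative values were -1.31, -1.14 and -1.34 with quantile scaling and -1.43, -1.07 and -1.47 with the loess fit. For miR-181b they were -1.19, -1.39 and -1.39, and -0.96, -1.13 and -1.37. For miR-181c they were -1.89, -1.18 and -0.83, and -1.68, -1.29 and -1.17. The plain log2 differences, in contrast, reached 0.63 after denervation and 0.98 after entrapment for miR-181a, and 0.68 and 0.32 for miR-181b, with the processed values. The median of all tested miRNAs after denervation itself moved by 1.39 without scaling and by 1.89 with the processed values. limma's threshold was passed in these 6 treatments by miR-181a in 3, 0 and 3 (denervation, entrapment, decompression) and by miR-181b in 0, 1 and 1. Of the tested miRNAs, 19.7% lay lower than miR-181a after denervation, 30.6% after entrapment and 26.0% after decompression. The shares were 20.2%, 17.9% and 15.0% for miR-181b and 12.1%, 11.6% and 13.9% for miR-181c. The members were thus low but not at the extreme.

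**Figure D2:**
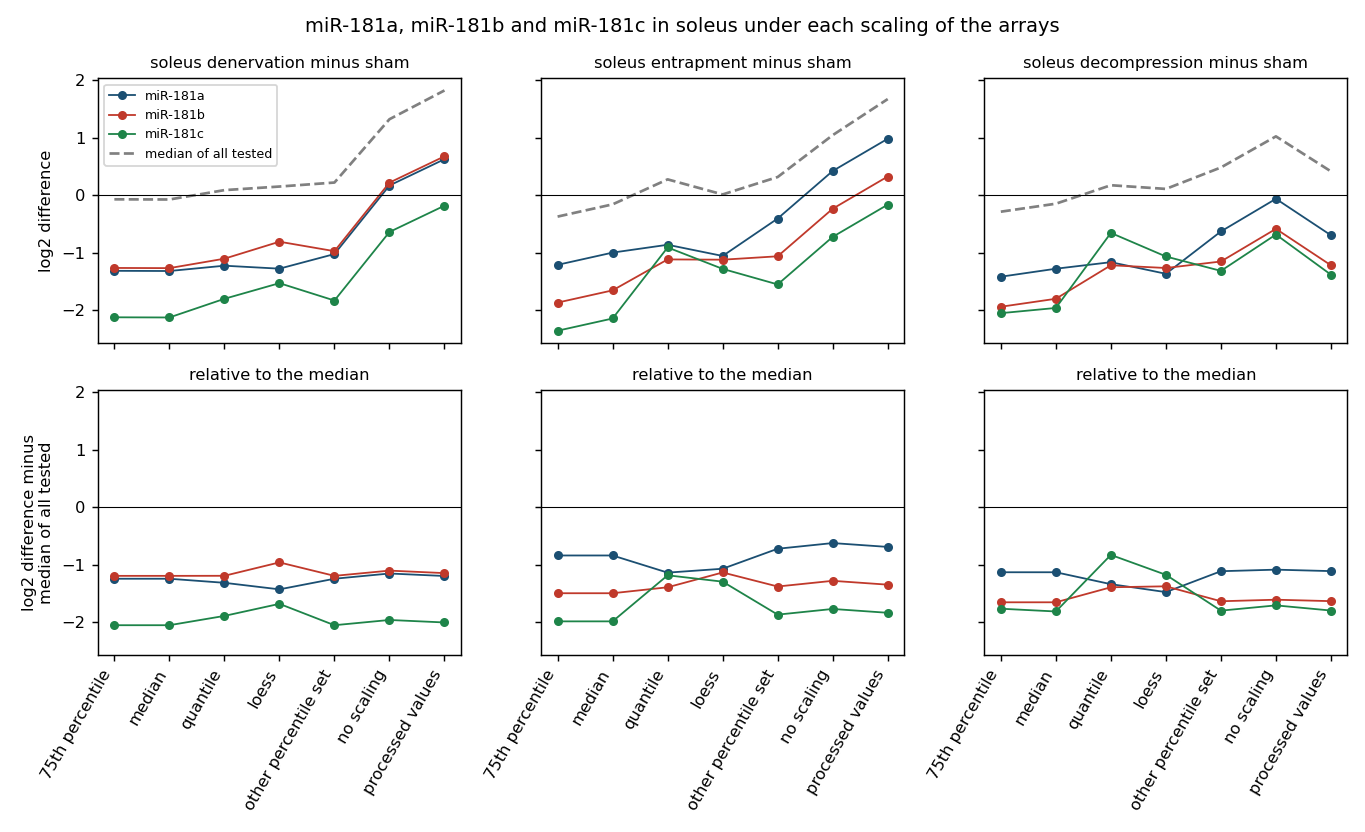
Log2 difference from the soleus sham array (top row) and the same minus the median of all tested miRNAs (bottom row) for miR-181a, miR-181b and miR-181c under 7 treatments of the scale, for denervation, entrapment and decompression (left to right); the dashed line is the median of all tested miRNAs. In the top row miR-181a moves from -1.31 to 0.63 after denervation together with the dashed line, and the bottom row, where the 4 treatments by 1 constant per array can move a point only through the floor, runs from -2.05 to -0.62.

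The soleus calls also rested on single arrays. Without denervation 2, neither member passed after denervation (adjusted p = 0.0661 for miR-181a and 0.0902 for miR-181b). miR-181b after denervation also missed the threshold without any 1 of entrapment 1, 2 or 3 or decompression 1 or 3 (adjusted p = 0.0586 to 0.0753). miR-181a after entrapment missed it without entrapment 2 (0.0878), entrapment 3 (0.0684) or decompression 1 (0.0591), and after decompression without decompression 1 (0.0507). miR-181b passed after entrapment and after decompression with any 1 array left out. With denervation 1 and 2 both left out, a setting chosen after seeing the data, miR-181b still passed after denervation (-1.74, adjusted p = 0.00491) and miR-181a did not (-1.23, adjusted p = 0.0515). miR-181c passed after denervation without decompression 3 (0.0303), after entrapment without decompression 2 (0.0451) or decompression 3 (0.0218), and after decompression without decompression 2 (0.0272).

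Marker miRNAs differed between soleus arrays too. The summed scaled signal of the 5 leukocyte miRNAs of 6 listed that the array holds, among them miR-142-3p and miR-223, was 700 on the sham array, 524 to 849 after denervation, 361 to 469 after entrapment and 342 to 477 after decompression. The sum of the endothelial miR-126 and miR-126* was 326 on the sham array, where miR-126* was not detected, and 895 to 1465 on the injury arrays. Against sham, limma called 1 leukocyte miRNA higher after denervation, 1 lower after entrapment and 1 lower after decompression. The medians of the 5 were 0.08, -0.52 and -0.29, against -0.07, -0.37 and -0.29 over all tested miRNAs. The 2 endothelial miRNAs were higher each time. Of 5 muscle miRNAs, 1 was lower each time and 1 was higher after denervation. Of 2 glial miRNAs, 1 was lower after denervation. Of 2 tested neuron and 2 red blood cell miRNAs, 0 passed. The part of these markers in the miR-181 differences was not tested.

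The injury groups of soleus could be set against each other with 3 arrays each. No member passed limma's threshold between entrapment and denervation, where 11.6% of all tested miRNAs did, between decompression and denervation, where 13.9% did, or between decompression and entrapment, where 0.00% did (6 of 173 at an unadjusted p under 0.05). miR-181b had log2 differences of -0.60 (95% interval -1.24 to 0.04, limma adjusted p = 0.234) and -0.67 (-1.31 to -0.03, adjusted p = 0.148) from denervation. Both passed without denervation 3 (-0.84 with adjusted p = 0.0394, and -0.91 with adjusted p = 0.0257), and with only denervation 3 kept they were -0.12 and -0.20. The denervation arrays of miR-181b thus split, with the 2 that share the sham array's file layout highest. miR-181a had 0.10 (-0.47 to 0.67) and -0.10 (-0.67 to 0.47), and miR-181c -0.23 (-1.93 to 1.47) and 0.07 (-1.63 to 1.77).

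miR-181d was detected in soleus on denervation 1 and denervation 2 only, at scaled signals of 22.7 and 12.8. Its signals without detection were 13.4 on the sham array, 11.8 on denervation 3, 0.77 to 4.12 after entrapment and -0.43 to 13.2 after decompression. The decompression arrays thus overlapped with those of denervation. Both arrays with detection are among the 3 with the bright control features, and the part of that brightness was not tested.

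In the DRGs, miR-181c and miR-181d were lower after entrapment and after decompression than after denervation, whereas miR-181a and miR-181b did not pass the threshold. Of all tested miRNAs, limma called 32.9% lower in the first comparison and 27.9% in the second, and the calls of miR-181d rested on single arrays. Under median scaling the plain difference of miR-181c changed sign for decompression against denervation and for both groups against sham. Between denervation and sham no member passed. The plot of estimates with their intervals shows the 4 comparisons beside those of soleus.

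**Figure D3:**
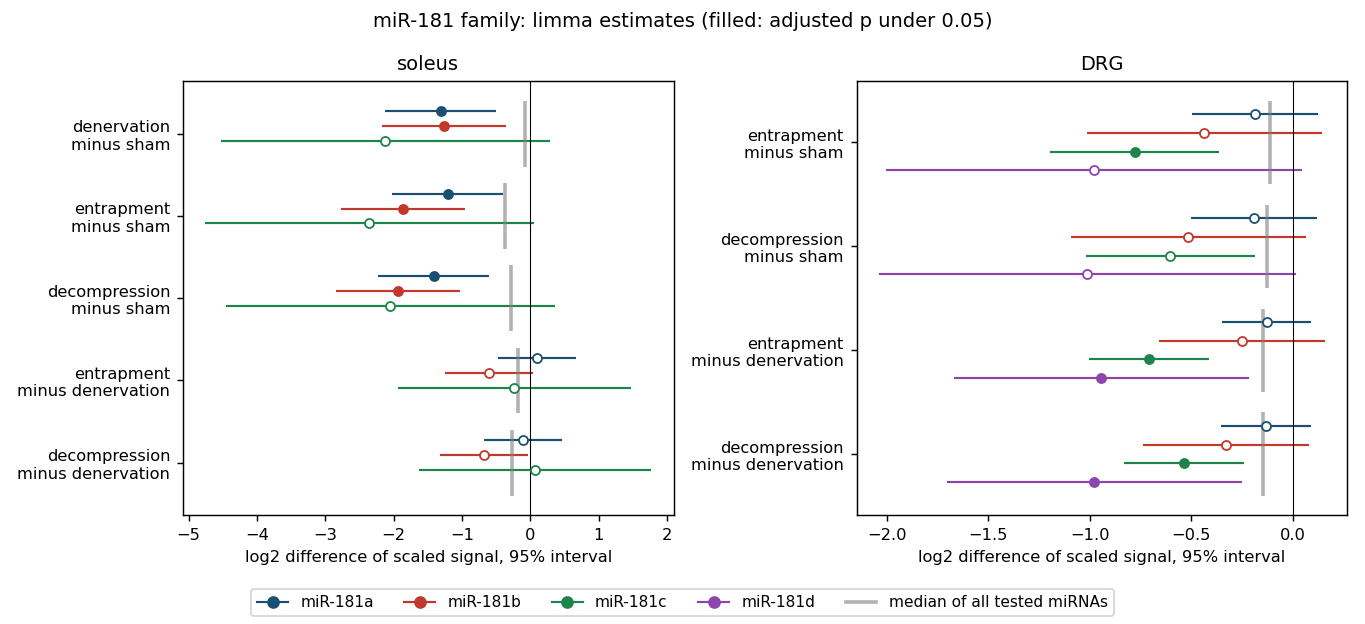
Log2 difference of the scaled signal with its 95% interval from limma for the tested members in soleus (left, 5 comparisons) and the DRGs (right, 4 comparisons); filled points have an adjusted p under 0.05 and grey bars mark the median of all tested miRNAs. Under this scaling miR-181a and miR-181b are filled in all 3 soleus comparisons with sham, though both changed sign without scaling after denervation, and in the DRGs miR-181c and miR-181d are filled against denervation at -0.53 to -0.98, where miR-181c changed sign under median scaling for decompression.

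The DRG sham array gave miR-181c a scaled signal of 42.8, and it was 39.0, 45.5 and 38.3 after denervation. It was 21.8, 27.9 and 25.5 after entrapment and 25.2, 27.7 and 32.0 after decompression. The 4 sham and denervation arrays were all above the other 6. Against denervation its log2 difference was -0.71 after entrapment (standard error 0.13, limma adjusted p = 0.00278) and -0.53 after decompression (0.13, adjusted p = 0.0119), lower on 3 of 3 arrays each time. Relative to sham, entrapment stood at -0.78 (adjusted p = 0.0179) and decompression at -0.60 (adjusted p = 0.0539). The last value passed without entrapment 1 (0.0386), entrapment 2 (0.0450) or decompression 3 (0.0383), and both against denervation passed with any 1 array left out.

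miR-181d, its neighbour in the genome, had 24.7 on the sham array and 22.9, 26.3 and 23.3 after denervation. It was 10.6, 8.40 and 22.3 after entrapment and 11.1, 11.7 and 14.3 after decompression. Here too the 4 sham and denervation arrays were above the other 6, but entrapment 3 nearly reached them. The log2 difference from denervation was -0.94 after entrapment (standard error 0.32, limma adjusted p = 0.0446) and -0.98 after decompression (0.32, adjusted p = 0.0413). Against sham it was -0.98 (adjusted p = 0.148) and -1.01 (adjusted p = 0.139). Entrapment 3 decided these values. Without it the difference of entrapment was -1.36 from denervation (adjusted p = 0.000378) and -1.39 from sham (adjusted p = 0.00257), and decompression passed against sham too (adjusted p = 0.00818). In contrast, leaving out any 1 of the other 8 injury arrays took entrapment against denervation past 0.05 (adjusted p = 0.0591 to 0.125), and leaving out any 1 of 7 of them, all but entrapment 2, did so for decompression against denervation (0.0513 to 0.107).

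miR-181b, 1 base from miR-181d, had 40.3 on the sham array, 33.9, 33.5 and 39.2 after denervation, 27.3, 24.2 and 40.0 after entrapment, and 25.8, 28.7 and 30.4 after decompression. Entrapment 3 was again near sham, just below it, and made that group overlap with denervation and decompression. The decompression arrays lay below those of sham and denervation. The log2 differences were -0.25 (95% interval -0.66 to 0.16) after entrapment and -0.33 (-0.74 to 0.08) after decompression against denervation, and -0.44 (-1.02 to 0.14) and -0.52 (-1.09 to 0.06) against sham. None passed with all arrays (limma adjusted p = 0.310, 0.183, 0.241 and 0.170). Without entrapment 3, entrapment passed against denervation (-0.46, adjusted p = 0.0183) and sham (-0.65, adjusted p = 0.0255), and decompression against denervation (adjusted p = 0.0459).

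miR-181a was the steadiest member in the DRGs. Its scaled signal was 228 on the sham array, 234, 200 and 225 after denervation, 185, 209 and 209 after entrapment, and 183, 206 and 213 after decompression. Denervation overlapped with every other group and the sham array lay above the entrapment and decompression arrays, with log2 differences of -0.13 (95% interval -0.35 to 0.09) after entrapment and -0.13 (-0.35 to 0.09) after decompression against denervation. Against sham the values were -0.19 (-0.50 to 0.13) and -0.19 (-0.50 to 0.12). Its passenger strand miR-181a* was detected on the sham array, on 3 of 3 arrays after denervation and on 1 of 3 after entrapment and after decompression each.

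In counts, limma called 0 of the 4 members between denervation and sham, where 0.457% of the 219 tested DRG miRNAs were called (34 of 219 at an unadjusted p under 0.05, no member among them). It called miR-181c alone between entrapment and sham, which was lower, beside 17.4% of all tested that were lower, and 0 members between decompression and sham, beside 18.3% called in either direction. It called 2 members, miR-181c and miR-181d, lower between entrapment and denervation, beside 32.9% of all tested, and the same 2 lower between decompression and denervation, beside 27.9%. Beside shares of that size, 2 of 4 is no result about the members. Between decompression and entrapment it called 0 members and 0.00% of all tested (9 of 219 at an unadjusted p under 0.05). By the 2-fold rule 0 members were called against sham in each group, where 1.37% of all tested miRNAs were called after denervation, 11.0% after entrapment and 13.7% after decompression.

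Of all tested DRG miRNAs, 26.9% were higher on each of the 4 sham and denervation arrays than on each of the other 6, as were miR-181c and miR-181d. The control features were compared by their unscaled signals, unlike the miRNAs. By these, 15 of the 45 were higher and 9 others were lower, which makes 24 that parted these arrays without overlap. Group and handling of these arrays cannot be told apart. The 219 tested miRNAs were split by brightness into 3 classes of 73. The dimmest class, which holds miR-181d, had a median log2 difference of -0.62 between entrapment and denervation, with 58.9% of them lower by limma. In the middle class, which holds miR-181b and miR-181c, the median was -0.10 with 23.3% lower, and in the brightest, which holds miR-181a, it was 0.01 with 16.4% lower. miR-181d of the dimmest class thus changed most and miR-181a of the brightest least. Within the middle class miR-181b and miR-181c differed, at -0.25 and -0.71. The part of brightness was not tested.

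Marker miRNAs of other cells moved in the same comparisons. Of the 5 leukocyte miRNAs, 3 were lower by limma between entrapment and denervation (median of the 5 log2 differences -0.49) and 0 between decompression and denervation (-0.15). Their summed scaled signal was 1150 on the sham array, 897 to 1393 on the denervation arrays, 773 to 951 on the entrapment arrays and 1026 to 1304 on the decompression arrays. Of the 2 endothelial miRNAs, 1 was lower in each comparison, with sums of 695, 651 to 718, 677 to 723 and 623 to 751. Of the 3 sensory neuron miRNAs, 2 were higher in each comparison (medians 0.27 and 0.27), with sums of 2826, 2304 to 2715, 3210 to 3470 and 3065 to 3515. Of the 6 tested miRNAs of the neuron list, 2 were higher and 1 was lower in each comparison (medians 0.14 and 0.14). Of the 5 muscle miRNAs, 1 was higher and 1 lower after entrapment, and 1 was higher and 0 lower after decompression. Of the 2 glial miRNAs, 1 was lower after entrapment and 0 after decompression, and of the 2 red blood cell miRNAs 0 passed in either. The part of these markers in the miR-181 differences was not tested.

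The scale moved the DRG values as well. Relative to the median of all tested miRNAs, entrapment against denervation was 0.02 for miR-181a, -0.10 for miR-181b, -0.56 for miR-181c and -0.80 for miR-181d. Of 7 other treatments of the scale, which include the exchanged names of the processed table, only quantile scaling and the loess fit can change these relative values by more than the floor or the exchange of names allows. With these the values were -0.081 and -0.15 for miR-181a, -0.0045 and -0.0016 for miR-181b, -0.42 and -0.45 for miR-181c and -0.41 and -0.54 for miR-181d. For decompression against denervation, miR-181c lay at -0.39 (quantile scaling -0.36, loess fit -0.30) and miR-181d at -0.83 (-0.40 and -0.58). miR-181c passed limma's threshold in 6 of the 7 in this comparison and in the 1 of decompression against denervation, and miR-181d in 4 of 7 in both. The exception for miR-181c was median scaling, under which the median of all tested miRNAs moved by 0.64 and 0.65 and its plain differences were -0.07 and 0.12. Under the names of the processed table, with the scanner values, entrapment against denervation was -0.53 for miR-181c and -0.98 for miR-181d.

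A ratio of 2 members on the same array is not changed by scaling with 1 constant per array, except through the floor. It shows only that they changed unequally. In the DRGs the log2 ratio of miR-181c over miR-181a was -2.58 to -2.14 on the 4 sham and denervation arrays and -3.09 to -2.73 on the other 6, without overlap. Such a parting held for 20.2% of all other tested miRNAs set over miR-181a, and miR-181c was the only 1 of the 3 other members among them. The log2 ratio of miR-181d over miR-181b, the pair that differs by 1 base, was -0.75 to -0.35 on the sham and denervation arrays and -1.53 to -0.85 on the others. That also was without overlap, beside 13.3% of all other tested miRNAs set over miR-181b. The log2 ratio of miR-181b over miR-181a ran from -2.78 to -2.50 and from -3.11 to -2.38, with overlap. In soleus the latter ratio was -1.81 on the sham array, -1.39, -1.57 and -2.32 after denervation, -2.56 to -2.38 after entrapment and -2.59 to -2.02 after decompression, so that denervation 3 lay with the entrapment and decompression arrays.

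**Figure D4:**
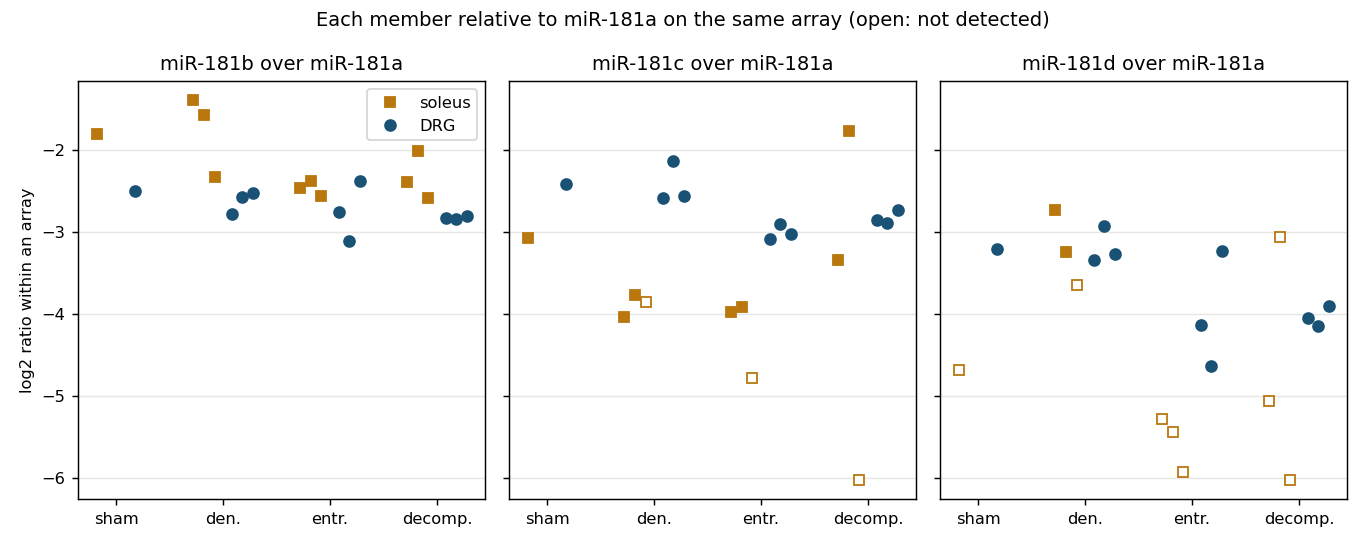
Log2 ratio of miR-181b, miR-181c and miR-181d over miR-181a on the same array, for soleus (squares) and DRG arrays (circles) by group; each symbol is 1 array and open symbols mark arrays on which a member was not detected. miR-181b over miR-181a is lower in the DRGs (mean -2.71) than in soleus (-2.15), and miR-181c over miR-181a is higher in the DRGs (-2.72) than in soleus (-3.85).

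Between the tissues, these ratios differed. Over 10 arrays each, the log2 ratio of miR-181b over miR-181a was -2.15 ± 0.43 (SD) in soleus and -2.71 ± 0.21 in the DRGs, a difference of -0.56 (permutation test with 100000 resamples, two-sided, adjusted p = 0.000945 over 3 pairs, raw p = 0.000630). That of miR-181c over miR-181a was -3.85 ± 1.08 and -2.72 ± 0.30, a difference of 1.13 (same permutation test, adjusted p = 0.00276, raw p = 0.00276). That of miR-181c over miR-181b was -1.70 ± 0.99 and -0.01 ± 0.30, a difference of 1.69 (same permutation test, adjusted p = 0.000300, raw p = 0.0001). Thus miR-181c was higher in the DRGs, relative to both miR-181a and miR-181b, and the ranges of the tissues still overlapped in all 3 ratios. With the same-numbered soleus and DRG arrays of a group taken as 10 pairs, an alternative chosen after seeing the data, an exact two-sided sign-flip permutation test gave adjusted p = 0.00586, 0.0117 and 0.00586. miR-181c was not detected on 3 of the soleus arrays, so that its ratios there rest in part on signals near the floor.

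On a scale common to both tissues, limma called miR-181a and miR-181c higher in the DRGs than in soleus, beside 63.9% of 230 tested miRNAs. The log2 difference was 0.66 for miR-181a (adjusted p = 1.43e-05), 0.07 for miR-181b (95% interval -0.23 to 0.37, adjusted p = 0.632) and 1.71 for miR-181c (adjusted p = 0.000413). miR-181d entered this fit only through its DRG arrays, a choice that favours a higher value there. It stood at 1.58, which is given as a description. The median of all tested miRNAs was 1.06, so that relative to it miR-181a lay at -0.41, miR-181b at -0.99, miR-181c at 0.65 and miR-181d at 0.52. With quantile scaling, the treatment tried here that can change these relative values by more than the floor allows, they were -0.13, -1.25, 0.030 and -0.33. Over 6 other treatments of the scale, the plain difference changed sign in 5 of 6 for miR-181b, in 2 of 6 for miR-181a and under quantile scaling for all 4 members.

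The differences from sham were themselves compared between tissues. The DRG difference minus the soleus difference for denervation was 1.25 for miR-181a (standard error 0.31, limma adjusted p = 0.00965), the 1 member called higher beside 15.2% of all tested. For entrapment it was 1.22 for miR-181a (adjusted p = 0.0102) and 1.62 for miR-181b (adjusted p = 0.0161), 2 members beside 19.1% of all. For decompression it was 1.38 for miR-181a (adjusted p = 0.00420) and 1.58 for miR-181b (adjusted p = 0.0179), 2 members beside 19.1% of all. Each of these 5 changed sign without scaling, to between -0.96 and -0.14. They rest on 1 sham array per tissue, and the fit took the arrays of both tissues as independent.

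As a description, members were correlated over the 10 arrays of a tissue, which share their groups and brightness. In the DRGs Pearson's r was 0.92 between miR-181b and miR-181d, 0.77 between miR-181c and miR-181d, and 0.58 to 0.68 for the other pairs. In soleus it was 0.76 between miR-181a and miR-181b, the pair encoded side by side, and 0.28 between miR-181a and miR-181c. The miRNAs most like a member in the DRGs were miR-30e, miR-196c and miR-30d for miR-181a (r = 0.81 to 0.85), miR-196b, miR-450a and miR-346 for miR-181b (0.85 to 0.93), miR-378, miR-22* and miR-125a-5p for miR-181c (0.94 to 0.97), and miR-450a, miR-29a* and miR-503 for miR-181d (0.90 to 0.95). miR-450a was thus named for both miR-181b and miR-181d. In soleus they were miR-127, miR-300-3p and miR-136 for miR-181a (0.86 to 0.89), miR-341, miR-743a and miR-878 for miR-181b (0.97 to 0.99), and miR-337, miR-140* and miR-532-5p for miR-181c (0.76 to 0.84).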

How the data were processed

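miRNA of rat soleus muscle and of DRGs was measured on 20 Agilent arrays of 1 colour. The labels describe amplification with Cy3-CTP, the Methods ligation of pCp-Cy3. Per the submitters' processing notes, Agilent Feature Extraction 9.5.3 was used. The scanner files that the authors deposited hold an intensity per miRNA on a linear scale (the total gene signal, summed over probes with background taken off, arrays not brought to a common level), its error and a detection call. A further file by the authors, the processed table, holds a signal for every miRNA and array that equals the scanner intensity over 1 constant per array. No member's value departed from this by over 1%. The 6 DRG columns named entrapment and decompression there hold the scanner values of the other group. Groups and replicate numbers came from the labels of the scanner files.

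Scaling used the 75th percentile of each array, taken over 108 miRNAs with detection on each of the 10 arrays in soleus, over all 348 in the DRGs, and for both tissues together over the 102 detected on all 20. A median of 148.5 of the 348 miRNAs were detected per soleus array and of 195 per DRG array. The floor was the lowest scaled signal with detection on each array, as a median over arrays. miRNAs detected on at least 3 of 10 arrays of a tissue were tested (173 in soleus, 219 in the DRGs, 230 in either). limma 3.58.1 (lmFit and eBayes) in R 4.3.3 took the arrays of 1 tissue, or all 20, with the group as the only term, and two-sided p-values were adjusted over all tested miRNAs (Benjamini-Hochberg, threshold 0.05). In these fits the sham array is assumed to vary like the other groups. Ratios were tested in Python 3.11.15 with numpy 2.4.6, and figures drawn with matplotlib 3.10.9. The limma code was tested on simulated data. The number of arrays, above all the 1 sham array per tissue, limits the precision. The Methods name 3 rats in each group, sham included, for the arrays, but the labels hold 1 sham array per tissue and do not tie arrays to rats, and p-values measure the spread between these samples, which may in part be technical.

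The members and lists were chosen with earlier results of these data known. By rule the text names all members, their passenger strand, the marker miRNAs and the 3 miRNAs most correlated with each member. The alternatives were other scalings, filters, floors and thresholds, the processed values, a variance trend with intensity, fits to the compared groups alone, a block for the replicate number and dropping injury arrays 1 at a time, besides 3 added after seeing the data. The loess had a span of 0.75 and used miRNAs whose ranks on an array and on sham lay within 10% of each other. Replicate numbers were not taken to pair the samples. Among same-numbered pairs, 1 of 9 in soleus and 4 of 9 in the DRGs had deviations from their group mean correlated above 0.1 (highest r = 0.21 and 0.48). Between the tissues, 3 of 9 pairs of a soleus and a DRG array did. With deviations from means of 3 arrays, such counts cannot exclude a pairing. The study's other assays were not used here.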

Additional observations from a re-analysis of the deposited data

Results flagged for a closer look

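The difference from sham of miR-181a differed between the tissues in limma's test of the difference itself, by 1.25 on the log2 scale for denervation, 1.22 for entrapment and 1.38 for decompression (DRG minus soleus). That of miR-181b differed by 1.62 for entrapment and 1.58 for decompression. In these values soleus lay further below its sham array than the DRGs below theirs. Relative to the median of all tested miRNAs they were 1.21, 1.04, 1.25, 1.44 and 1.45 and with quantile scaling, which unlike scaling by 1 constant per array can change such relative values, 1.37, 0.90, 1.08, 0.82 and 0.68. Without scaling the plain values changed sign.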

How the results depend on the processing

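Depth limited miR-181c and miR-181d in soleus, where signals lay near the detection floor, and 1 sham array per tissue limited every comparison with sham. Counts below are of members called, in the order denervation, entrapment and decompression against sham; the causes of the changes were not tested. Of the members' single values under all alternatives, 269 of 340 in soleus, 310 of 368 in the DRGs and 272 of 308 between tissues kept direction and side of the threshold. Values that passed neither as reported nor in the alternative count among these, so the totals do not measure how well the calls held.

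In soleus, limma called 0, 0 and 0 members without scaling, with the processed values and with the percentile over the other set, against 2, 2 and 2 as reported. Median scaling gave 1 and 1 for the first and second, and quantile and loess scaling 1, 0 and 1. No filter, a floor of 1 on the unscaled signal and an intensity trend each gave 1 for denervation. Fits to only both groups compared gave 0 for denervation and 1 for decompression. The 2-fold rule gave 0, 0 and 0 without scaling and with the processed values, 1, 1 and 0 with the other percentile set, 1, 0 and 1 with loess, 1 and 0 for entrapment and decompression with quantile scaling, and 1 for decompression with median scaling, against 2, 3 and 2. Without scaling the log2 difference from sham turned to 0.17 for miR-181a and 0.22 for miR-181b after denervation and to 0.42 for miR-181a after entrapment. With the processed values it was 0.63 and 0.68 after denervation and 0.98 and 0.32 after entrapment. Between injury groups, entrapment minus denervation of miR-181c turned to 0.89 (quantile), 0.25 (loess), 0.28 (other percentile set) and 0.018 (processed). Decompression minus denervation of miR-181a turned to 0.040 (median), 0.061 (quantile) and 0.39 (other percentile set), and that of miR-181c to -0.045 (no scaling) and -1.20 (processed). With both denervation arrays of the sham array's file layout left out, chosen after seeing the data, 1 member was called after denervation and the latter value was -0.044.

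In the DRGs, limma called 1 member between decompression and sham without scaling, with median scaling, with the other percentile set and with the processed values, against 0. It called 0 between entrapment and sham with the processed values and with fits to only both groups compared, against 1. The scanner values under the processed table's names, also chosen after seeing the data, gave 0 for entrapment and 1 for decompression against sham. Against denervation, no scaling gave 4 and 4 members for entrapment and decompression, quantile and loess scaling and no filter 1 and 1, median scaling 1 for decompression, and only both groups compared 1 for entrapment, against 2 and 2. The fold rule gave 1 member at 1.5-fold for entrapment and 1 for decompression, 1 for decompression at 2-fold in the mean of the arrays, and 1 for decompression without scaling, against 0. Median scaling turned the differences from sham to 0.66, 0.41 and 0.065 for miR-181a, miR-181b and miR-181c after entrapment and to 0.66, 0.34 and 0.25 after decompression. It turned those from denervation to 0.51 and 0.39 for miR-181a and miR-181b after entrapment and to 0.52, 0.32 and 0.12 for miR-181a, miR-181b and miR-181c after decompression. Quantile scaling turned entrapment minus denervation of miR-181b to 0.027.

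Between tissues, DRG minus soleus of miR-181b turned to -0.055 (no scaling), -0.41 (median), -0.73 (other percentile set) and -0.29 (processed). miR-181a turned to -0.14 with the other percentile set, and quantile scaling gave -0.18, -1.29, -0.014 and -0.37 for the 4 members. limma called 1 member with quantile scaling and 1 with only miRNAs detected on every array, against 3 as fitted, miR-181d included. For the tissue difference of the differences from sham, 0, 0 and 0 members were called without scaling, with the processed values and with the other percentile set, against 1, 2 and 2. Median scaling gave 1 and 1 for entrapment and decompression, quantile scaling 0 and 1, and leaving out both denervation arrays of the sham layout 2 for denervation. Without scaling miR-181a and miR-181b turned to -0.14 and -0.32 for denervation, -0.96 and -0.56 for entrapment and -0.47 and -0.27 for decompression. With the processed values they were -0.57 and -0.75 for denervation and -1.12 and -0.79 for entrapment.

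The replicate numbers were not taken to pair the samples. With the replicate number as a block, limma called 0, 0 and 1 members in soleus against sham and 1 in the DRGs between decompression and sham. With same-numbered soleus and DRG arrays as pairs, chosen after seeing the data for the ratios and the differences of differences, limma called 3 members between tissues and 1, 2 and 2 for the differences of differences, as without pairs.

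With each injury array left out in turn, members called ranged in soleus from 0 to 2, 1 to 3 and 1 to 3 against sham and from 0 to 1 for both comparisons with denervation. In the DRGs they ranged from 1 to 3 for entrapment and 0 to 1 for decompression against sham, from 1 to 3 for both against denervation, and from 0 to 1 under the fold rule for entrapment and for decompression. The tissue difference for denervation gave 1 to 2, the second being miR-181b without soleus denervation 1 (1.33, limma adjusted p = 0.0239). In soleus, miR-181c ranged from -0.41 to 0.014 for entrapment minus denervation and from -0.78 to 1.04 for decompression minus denervation, and miR-181a from -0.29 to 0.018 for the latter. The within-array ratios between tissues were refitted only with a pseudocount, with the processed values, without each array in turn and as pairs. In these alternatives they stayed past the threshold. miR-181b over miR-181a ranged from -0.61 to -0.48. miR-181c ranged from 0.86 to 1.36 over miR-181a and from 1.43 to 1.91 over miR-181b. Scaling by 1 constant per array can change a ratio only through the floor. Quantile scaling, which can change it further, was not applied to the ratios.

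Over all tested miRNAs the alternatives moved the counts called by limma in either direction to between 0 and 49 (45 as reported), 2 and 59 (51) and 5 and 65 (55) in soleus against sham, and to 0 to 26 (20) and 2 to 27 (24) against denervation. In the DRGs they were 1 to 16 (1), 19 to 141 (43) and 18 to 148 (40) against sham, and 60 to 150 (90) and 53 to 154 (80) against denervation. Between tissues they were 82 to 209 (191), and 0 to 78 (55), 2 to 82 (64) and 0 to 90 (65) for the differences of the differences. The fold rule gave 38 to 94 (59), 57 to 115 (66) and 22 to 94 (70) in soleus and 2 to 13 (3), 12 to 48 (24) and 15 to 49 (30) in the DRGs.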
